A study of Mus musculus with 4 samples.

Results

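The miR-99/100 and miR-125 families are 2 groups of microRNAs (miRNAs), short RNAs that guide Argonaute proteins to messenger RNAs with a matching site. Their arms were taken by name from the deposited count table, as every entry named miR-99a, miR-99b, miR-100, miR-125a or miR-125b with a 5p or 3p suffix. The rule found 10 of 982 entries, and 8 of these 10 averaged 10 CPM or more over the libraries and were tested among 322. CPM here is a count per 1000000 miRNA counts of its library, after scaling by edgeR's TMM factors. The 2 left out were miR-99b-3p and miR-100-3p.

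The RNA came from interstitial cells of Cajal (ICC), the pacemaker cells of the gut muscle, which carry the receptor tyrosine kinase Kit. All mice were C57BL/6, aged 11 to 20 weeks, and carried 1 Kit allele with a copGFP reporter (KitcopGFP/+), by which the cells were sorted from whole dissociated colon or jejunum. Lepob/ob mice (ob/ob) make no working leptin, the hormone of fat tissue that limits feeding, and are diabetic in the labels' wording. They were set against Lepob/+ mice (ob/+), healthy or wild type in that wording, which carry 1 mutant Lep allele. There were 4 libraries, of ob/ob colon, ob/+ colon, ob/ob jejunum and ob/+ jejunum, each from pooled material (15 each, per the labels). With 1 library per group, values within a tissue have no replicates, and their intervals cover counting error only. Kit and the other markers of ICC are messenger RNAs, so a table of miRNAs cannot check the cell type.

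In mammals the miR-99/100 family is known for repressing mTOR and the insulin-like growth factor 1 receptor. miR-125 is the relative of lin-4, the developmental timing miRNA of Caenorhabditis elegans, and is known from stem and progenitor cells. Members of both families lie on either side of a let-7 gene in 3 clusters of the mouse genome. A miRNA hairpin is cut into a 5p and a 3p arm. In these families the 5p arm is the guide that is normally kept, and the 3p arm is the passenger.

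The sequences show how closely the guide arms resemble each other, which bears on how reads could be assigned to them. They were taken by name from RefSeq (GRCm38.p6), which held all 10 arms. The deposited counts were assigned on mm9, and the positions below belong to GRCm38.p6 alone. Capitals mark the seed, bases 2 to 8 from the 5′ end, through which a miRNA pairs with its targets.
miR-99a-5p: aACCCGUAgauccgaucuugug
miR-100-5p: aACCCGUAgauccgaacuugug
miR-99b-5p: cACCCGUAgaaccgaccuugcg
miR-125a-5p: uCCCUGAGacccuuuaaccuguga
miR-125b-5p: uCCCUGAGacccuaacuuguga
miR-10a-5p: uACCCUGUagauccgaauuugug
The 3 arms of the miR-99/100 family share the seed ACCCGUA. miR-99a-5p and miR-100-5p have 21 of 22 bases in common and differ by U16A, counted from the 5′ end of miR-99a-5p. miR-99a-5p and miR-99b-5p differ by A1C, U11A, U16C and U21C. The 2 miR-125 guide arms share the seed CCCUGAG and their first 13 bases. miR-10a-5p is shown because its sequence resembles the miR-99/100 arms, but its seed is ACCCUGU. Since a single base separates miR-99a-5p from miR-100-5p, the split of reads between them is less certain than their sum.

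The guide arms come from 6 hairpins in 3 clusters, all on the plus strand. Mir99a makes miR-99a-5p at chr16:77598940-77598961. Mirlet7c-1 follows 656 bases downstream and Mir125b-2 another 46522 bases on, and all 3 lie in introns of the noncoding host gene Mir99ahg in GENCODE M21. Mir100 makes miR-100-5p at chr9:41531437-41531458, with Mirlet7a-2 5211 bases downstream and Mir125b-1 45114 bases beyond that. These 3 lie in introns of the noncoding gene 3110039I08Rik. The compact cluster of Mir99b, Mirlet7e and Mir125a spans 692 bases on chromosome 17 and lies within the protein-coding gene Spaca6, with Mir99b and Mirlet7e in introns and Mir125a overlapping an annotated exon. miR-99b-5p lies at chr17:17830194-17830215 and miR-125a-5p at chr17:17830817-17830840. miR-125b-5p is identical from its 2 hairpins (chr9:41581940-41581961 and chr16:77646279-77646300), so its reads cannot be given to one locus. The 3p arms of the 2 miR-125b hairpins differ and can. Both arms of Mir99a and Mir125a are in capitals in their hairpins below, which show that the arms face each other across the loop.
Mir99a: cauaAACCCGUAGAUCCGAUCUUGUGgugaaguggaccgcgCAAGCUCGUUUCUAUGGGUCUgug
Mir125a: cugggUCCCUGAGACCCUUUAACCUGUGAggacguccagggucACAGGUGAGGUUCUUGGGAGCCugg

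The libraries held 267077 miRNA counts in ob/ob colon, 716476 in ob/+ colon, 433201 in ob/ob jejunum and 466335 in ob/+ jejunum. A single count was worth 1.52 to 3.15 CPM, and a count of 0 allowed up to 4.55 to 9.45 CPM (3 counts). MiRNAs made up 10.6% and 12.3% of the mappable reads of the ob/ob colon and jejunum libraries, against 26.3% and 22.5% in ob/+. CPM values are relative to the other miRNAs, and scaling to mappable reads instead would shift each ob/ob over ob/+ log2 ratio by -0.93 in colon and -0.82 in jejunum. Library totals without TMM would shift the colon ratios by 0.37, and the authors' factors the jejunal ratios by -0.12. Over all 322 entries edgeR called 33 lower and 25 higher in ob/ob, against 158 and 18 scaled to mappable reads and 28 and 43 with library totals. In bulk libraries, fewer cells of a type and less RNA per cell cannot be told apart.

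The 5 guide arms were among the abundant miRNAs of the sorted cells. Together they took 14.8% of the miRNA counts in ob/ob colon, 17.2% in ob/+ colon, 12.2% in ob/ob jejunum and 14.0% in ob/+ jejunum. All arms are 22 to 24 bases long, so their levels are compared without a length correction. mmu-miR-125b-5p, where mmu stands for mouse and is left out below, was highest of the members in every library. It stood at 66291 CPM in ob/ob colon, 104799 CPM in ob/+ colon, 64239 CPM in ob/ob jejunum and 77038 CPM in ob/+ jejunum, which put it between the third and the fifth entry of each library. mmu-miR-125a-5p followed with 40807 CPM in ob/ob colon, 48503 CPM in ob/+ colon, 37360 CPM in ob/ob jejunum and 35338 CPM in ob/+ jejunum. The 3 miR-99/100 guide arms lay several-fold below, and their order differed between genotypes. In both ob/+ libraries miR-99a-5p was the most abundant of the 3 and miR-100-5p the least. In both ob/ob libraries miR-100-5p was the most abundant and miR-99a-5p the least.

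**Figure D1:**
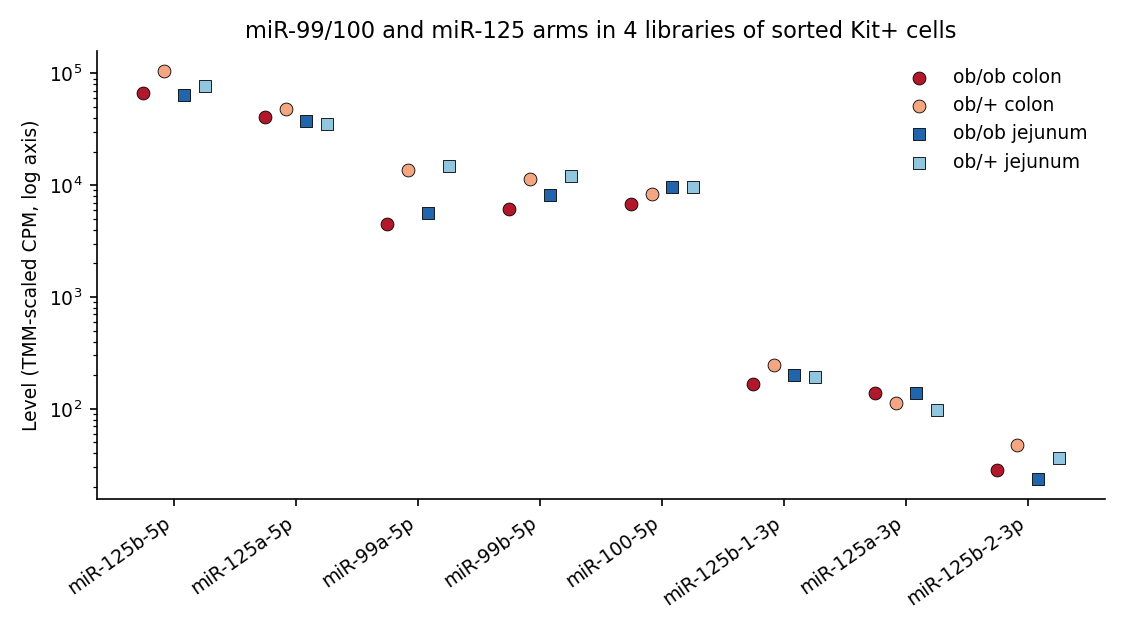
Level of each tested arm in TMM-scaled CPM (log axis), with 1 point per library (ob/ob colon, ob/+ colon, ob/ob jejunum, ob/+ jejunum). miR-99a-5p shows the widest gap, with ob/ob at 4538 and 5604 CPM and ob/+ at 13777 and 14740 CPM, while the points of miR-100-5p and miR-125a-5p lie close together.

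The main comparison asked which arms differed between leptin-deficient and heterozygous mice. mmu-miR-99a-5p fell in ob/ob. It stood at 4538 CPM (1441 counts) in ob/ob colon, against 13777 CPM (9077 counts) in ob/+ colon. In jejunum it stood at 5604 CPM (2362 counts) in ob/ob, against 14740 CPM (6460 counts) in ob/+. Both ob/ob libraries lay below both ob/+ libraries, and the 2 tissues were close to each other within a genotype. The fall was 3.03-fold in colon (log2 ratio -1.60, exact conditional 95% interval -1.68 to -1.52) and 2.63-fold in jejunum (-1.39, -1.46 to -1.33). Over both tissues a quasi-likelihood fit in edgeR, adjusted for tissue, gave a log2 change of -1.50 ± 0.17 (SE), or 2.83-fold lower, with a Benjamini-Hochberg adjusted p of 0.0111. In this fit the 2 tissues stood in for replicates, so its p-value does not measure variation between mice or between pools of a genotype. The authors' deposited table gives ratios of ob/ob over ob/+ of 0.348 in colon and 0.350 in jejunum for this miRNA.

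When 1 library was dropped the fit had genotype alone, and the remaining library of its genotype was assumed to vary like the others. The genotypes were then unbalanced for tissue, so these genotype changes include part of any tissue difference. miR-99a-5p then had a log2 change of -1.22 without the ob/ob colon library (edgeR adjusted p = 0.0813) and of -1.65 without the ob/ob jejunum library (adjusted p = 0.0701), and neither passed. Nearly all calls of the table were lost in these fits, which called 2 of 322 entries each, so the loss is not particular to miR-99a-5p. It passed without either ob/+ library. The log2 change was negative in 14 of 14 alternatives, 11 of which made the call. The lowest adjusted p was 4.6e-15, in edgeR scaled to mappable reads. Low values did not need a larger change or a smaller SE. With median-of-ratios factors the log2 change was -1.46 ± 0.21 (edgeR adjusted p = 3.8e-10), against -1.50 ± 0.17 in the main fit. All alternatives reuse the same 4 libraries, so such values are not stronger evidence. Summed with its near-identical relative miR-100-5p, miR-99a-5p still fell (-0.82, edgeR adjusted p = 0.0350).

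It was the 1 arm of 8 called lower, against 10.2% of all 322 entries, and 0 of 8 were called higher, against 7.76%. No arm had an unadjusted p under 0.05 for a higher level in edgeR, DESeq2 or limma-voom. The median log2 change of the 8 arms was -0.36, beside -0.12 over all 322 entries. By size alone, 1 arm, again miR-99a-5p, was at least 2-fold lower in ob/ob colon, against 17.4% of entries, and also 1 in ob/ob jejunum, against 18.0%. No arm was at least 2-fold higher in ob/ob colon or jejunum, against 17.1% and 14.6% of entries.

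**Figure D2:**
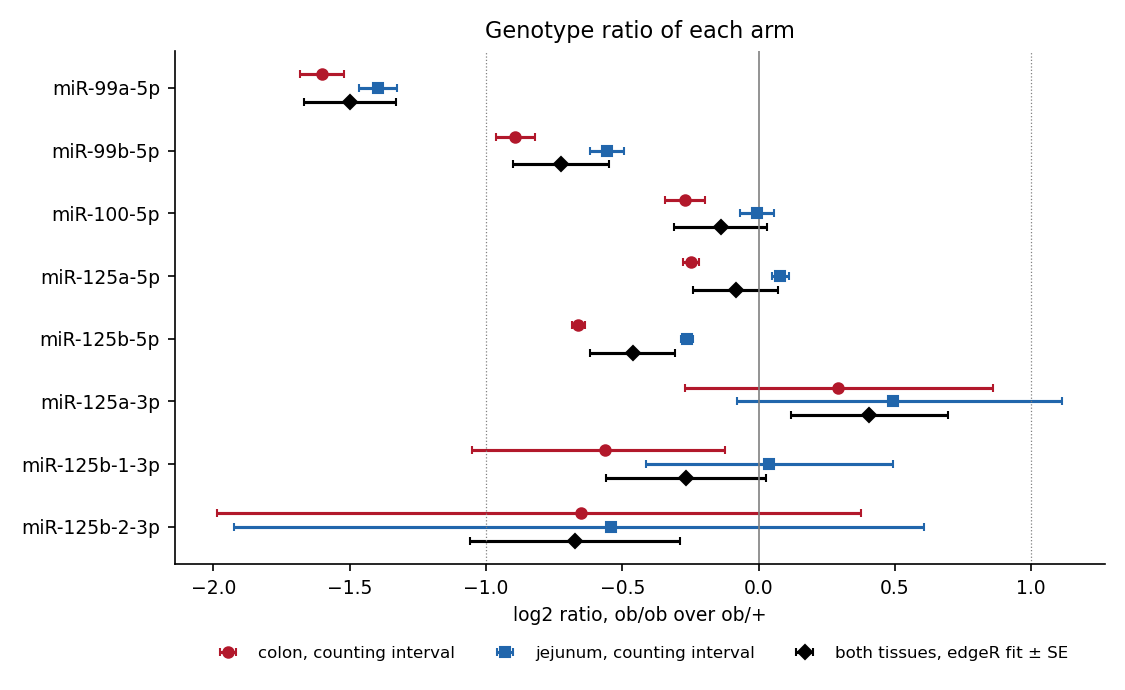
Log2 ratio of ob/ob over ob/+ for each tested arm, in colon and in jejunum (bars: exact conditional 95% counting intervals) and over both tissues (edgeR estimate, bars: ± SE). Dotted lines mark 2-fold. miR-99a-5p alone lies beyond 2-fold lower in both tissues, at -1.60 in colon and -1.39 in jejunum.

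The other guide arms of the miR-99/100 family did not pass. mmu-miR-99b-5p, from the chromosome 17 cluster, stood at 6172 CPM in ob/ob colon, against 11457 CPM in ob/+ colon, and at 8204 CPM in ob/ob jejunum, against 12074 CPM in ob/+ jejunum. Both ob/ob libraries again lay below both ob/+ libraries. Its log2 change was -0.72 ± 0.18, and its edgeR adjusted p of 0.0516 missed the threshold of 0.05. DESeq2 gave an adjusted p of 0.00586, and 8 of 14 alternatives called it lower. With median-of-ratios factors, among these 8, the log2 change was -0.68 ± 0.21 (edgeR adjusted p = 0.0045). That change was smaller and its SE larger than in the main fit, so this tally of calls does not measure a stronger difference. None of the 4 fits with a library left out called miR-99b-5p (log2 change -0.93 to -0.39), and the value nearest 0 was the one without the ob/ob colon library. The fits without either ob/ob library lost nearly all calls of the table, so the loss there is not particular to miR-99b-5p. mmu-miR-100-5p, which differs from miR-99a-5p by a single base, stood at 6855 CPM in ob/ob colon, against 8267 CPM in ob/+ colon, and at 9558 CPM in ob/ob jejunum, against 9603 CPM in ob/+ jejunum. Its groups overlapped, its log2 change was -0.14 ± 0.17 (edgeR adjusted p = 0.583), and the sign turned to 0.072 with library totals alone.

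Within the family, the shares do not depend on how libraries are scaled. miR-99a-5p made up 25.8% of the miR-99/100 guide counts in ob/ob colon (exact binomial 95% interval 24.7 to 27.0), against 41.1% in ob/+ colon (40.5 to 41.8). In jejunum it made up 24.0% in ob/ob (23.1 to 24.8), against 40.5% in ob/+ (39.7 to 41.2). miR-100-5p took 39.0% in ob/ob colon, against 24.7% in ob/+ colon, and 40.9% in ob/ob jejunum, against 26.4% in ob/+ jejunum. The share of miR-99b-5p lay between 33.2% and 35.1% in the 4 libraries. The 2 ob/ob libraries thus resembled each other, as did the 2 ob/+ libraries, although 1 library per group allows no test of the shares. The 3 arms summed to 17565 CPM in ob/ob colon, against 33501 CPM in ob/+ colon, and to 23365 CPM in ob/ob jejunum, against 36417 CPM in ob/+ jejunum.

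**Figure D3:**
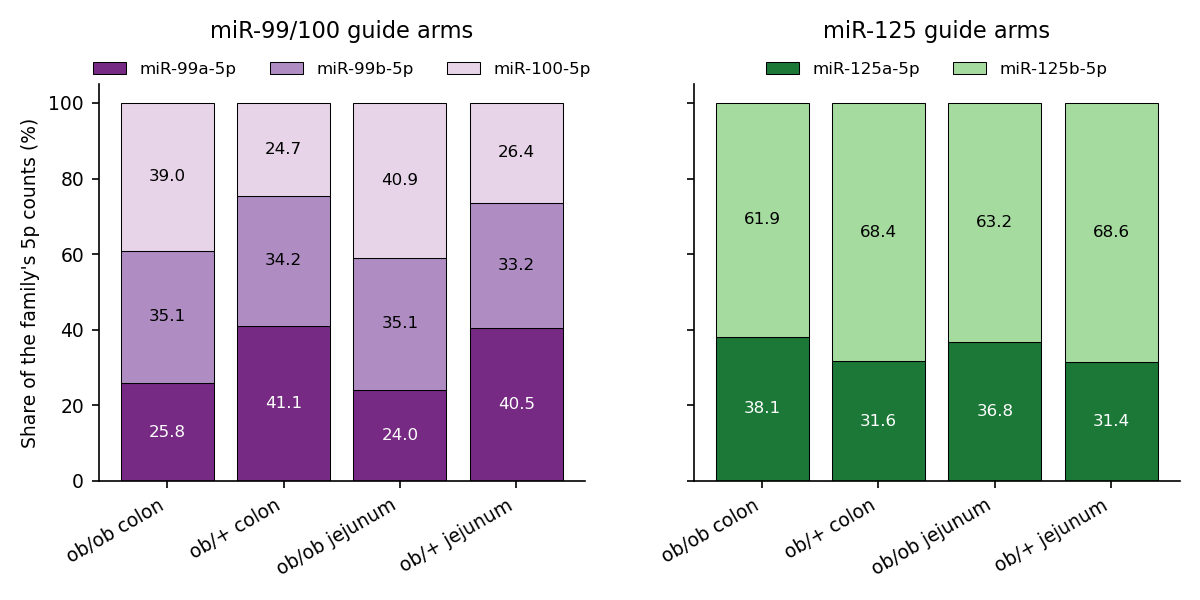
Share of each 5p arm among the 5p counts of its family (%), in ob/ob colon, ob/+ colon, ob/ob jejunum and ob/+ jejunum. Stacked bars start at 0 and sum to 100. miR-99a-5p makes up 25.8% and 24.0% of the miR-99/100 counts in ob/ob and 41.1% and 40.5% in ob/+.

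Of the miR-125 guide arms, neither passed. miR-125b-5p had a log2 change of -0.46 ± 0.16 (edgeR adjusted p = 0.0984), and both ob/ob libraries lay below both ob/+ libraries. Its log2 change was negative in 14 of 14 alternatives, and 4 of the 14 called it lower. With median-of-ratios factors, among these 4, it was -0.42 ± 0.16 (edgeR adjusted p = 0.0338), a smaller change without a smaller SE. The ratio was -0.66 in colon (-0.68 to -0.64) and -0.26 in jejunum (-0.29 to -0.24). miR-125a-5p had a log2 change of -0.085 ± 0.15 (edgeR adjusted p = 0.720), with overlapping groups, and its sign turned to 0.13 with library totals alone. Its ratio was -0.25 in colon (-0.28 to -0.22) and 0.080 in jejunum (0.05 to 0.11), or -0.040 in jejunum with the authors' factors. Summed, the 2 arms stood at 107098 CPM in ob/ob colon, against 153302 CPM in ob/+ colon, and at 101599 CPM in ob/ob jejunum, against 112376 CPM in ob/+ jejunum. miR-125a-5p made up 38.1% of this sum in ob/ob colon (37.6 to 38.6), against 31.6% in ob/+ colon (31.4 to 31.9). In jejunum it made up 36.8% in ob/ob (36.3 to 37.2), against 31.4% in ob/+ (31.0 to 31.9). The ratio of miR-125b-5p to miR-125a-5p was lower in ob/ob by a like amount in both tissues, with a log2 difference of -0.41 in colon and -0.34 in jejunum.

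Counting errors of these abundant arms are small, so tissue differences in the genotype ratio exceeded them. With TMM, the log2 ratio was lower in colon than in jejunum by 0.21 to 0.40 for each of the 5 guide arms, and the counting intervals of these differences lay below 0. The size of the difference depended on the scaling, and its sign did for miR-99a-5p and miR-100-5p. With library totals alone, miR-99a-5p was at -1.23 in colon and -1.34 in jejunum, and miR-100-5p at 0.10 and 0.043. The other arms kept the order, with miR-99b-5p at -0.52 and -0.51, miR-125a-5p at 0.12 and 0.13, and miR-125b-5p at -0.29 and -0.21. With the authors' factors, the ratio of miR-99a-5p was -1.52 in colon and -1.51 in jejunum. miR-125b-5p was then at -0.58 and -0.38, miR-99b-5p at -0.81 and -0.68, miR-125a-5p at -0.17 and -0.040, and miR-100-5p at -0.19 and -0.13. Scaled to mappable reads, each of the 5 guide arms kept the order. The median log2 ratio of all 322 entries was itself -0.21 in colon and 0.02 in jejunum. No replicate library exists to test these differences.

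The passenger arms were rare. mmu-miR-125a-3p had 44 counts in ob/ob colon, against 74 in ob/+ colon, and 59 in ob/ob jejunum, against 43 in ob/+ jejunum. In CPM these were 139 and 140 in ob/ob, against 112 and 98.1 in ob/+, so both ob/ob libraries lay above both ob/+ libraries. The log2 change was 0.41 ± 0.29 (edgeR adjusted p = 0.346), or -0.47 scaled to mappable reads, and both counting intervals included 0. It made up 0.338% of the miR-125a counts in ob/ob colon (0.246 to 0.454), against 0.231% in ob/+ colon (0.181 to 0.290). In jejunum it made up 0.373% in ob/ob (0.284 to 0.481), against 0.277% in ob/+ (0.200 to 0.373). The share was thus higher in the ob/ob library of both tissues, and with 1 library per group it was not tested.

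The 3p arms of miR-125b tell its 2 hairpins apart. miR-125b-1-3p, from chromosome 9, had 53 counts in ob/ob colon, against 164 in ob/+ colon, and 84 in ob/ob jejunum, against 85 in ob/+ jejunum. miR-125b-2-3p, from chromosome 16, had 9 counts in ob/ob colon, against 31 in ob/+ colon, and 10 in ob/ob jejunum, against 16 in ob/+ jejunum. The chromosome 9 arm took most of the passenger counts in every library, with 85.5% in ob/ob colon (74.2 to 93.1), 84.1% in ob/+ colon (78.2 to 88.9), 89.4% in ob/ob jejunum (81.3 to 94.8) and 84.2% in ob/+ jejunum (75.6 to 90.7). Passenger arms decay at their own rates, so these shares describe the 3p arms and not the guide made at each locus. The log2 changes were -0.27 ± 0.29 for miR-125b-1-3p and -0.67 ± 0.39 for miR-125b-2-3p (edgeR adjusted p = 0.546 and 0.257). For miR-125b-2-3p both ob/ob libraries lay below both ob/+ libraries, and those of miR-125b-1-3p overlapped. In all, 4 of 8 arms had both ob/ob libraries below both ob/+ libraries, against 37.0% of entries, and 1 of 8 above, against 32.9%. miR-99b-3p had 1 and 2 counts in ob/ob colon and jejunum, against 8 and 4 in ob/+, and miR-100-3p had 1 count in ob/+ colon and 0 in the other libraries.

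Clustered hairpins can share a primary transcript, so each arm was set beside its neighbours. Next to Mir99a, let-7c-5p stood at 51252 CPM in ob/ob colon, against 64318 CPM in ob/+ colon, and at 52645 CPM in ob/ob jejunum, against 67772 CPM in ob/+ jejunum. let-7c-5p is also made on chromosome 15, and its log2 change of -0.35 ± 0.13 did not pass (edgeR adjusted p = 0.116). For each let-7c-5p count there were 0.0885 miR-99a-5p counts in ob/ob colon, against 0.214 in ob/+ colon, and 0.106 in ob/ob jejunum, against 0.217 in ob/+ jejunum. miR-99a-5p was thus also lower relative to the miRNA encoded next to it. Against miR-125b-2-3p, the one arm particular to the far end of the cluster, the ratio of miR-99a-5p differed by -0.87 in colon and -0.77 in jejunum (log2), on at most 31 passenger counts.

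In the chromosome 9 cluster, let-7a-5p had a log2 change of 0.34 ± 0.13 (edgeR adjusted p = 0.128), but it is made from other loci too. miR-100-5p, at one end, was set against miR-125b-1-3p, the arm particular to the other end. There were 41.1 miR-100-5p counts for each miR-125b-1-3p count in ob/ob colon, against 33.2 in ob/+ colon, and 48.0 in ob/ob jejunum, against 49.5 in ob/+ jejunum.

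The compact chromosome 17 cluster had neighbours with differences of opposite sign. let-7e-5p, encoded between Mir99b and Mir125a, stood at 3338 CPM in ob/ob colon, against 1876 CPM in ob/+ colon, and at 3402 CPM in ob/ob jejunum, against 2152 CPM in ob/+ jejunum. Its log2 change of 0.75 ± 0.19 did not pass (edgeR adjusted p = 0.0553), and scaled to mappable reads it was -0.13. For each let-7e-5p count there were 1.85 miR-99b-5p counts in ob/ob colon, against 6.11 in ob/+ colon, and 2.41 in ob/ob jejunum, against 5.61 in ob/+ jejunum. This ratio, which no library scaling alters, differed by -1.72 in colon and -1.22 in jejunum (log2). The let-7 values include fractional counts, and let-7 members differ from each other by few bases, so their split is uncertain. let-7e-3p, with at most 34 counts in a library, had a log2 change of -0.81 ± 0.43 (edgeR adjusted p = 0.232). Of 8 let-7 arms listed as neighbours, 7 were in the table, 5 were tested and 0 passed in edgeR, with 2 at an unadjusted p under 0.05. The list was wider than the clusters. It held let-7a-1-3p, which was tested, and let-7c-2-3p, which had no entry, and both are named after hairpins outside the clusters. let-7c-1-3p and let-7a-2-3p, named after hairpins of the clusters, had at most 2 counts in a library and were not tested. DESeq2 called 1 and limma-voom 0.

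**Figure D4:**
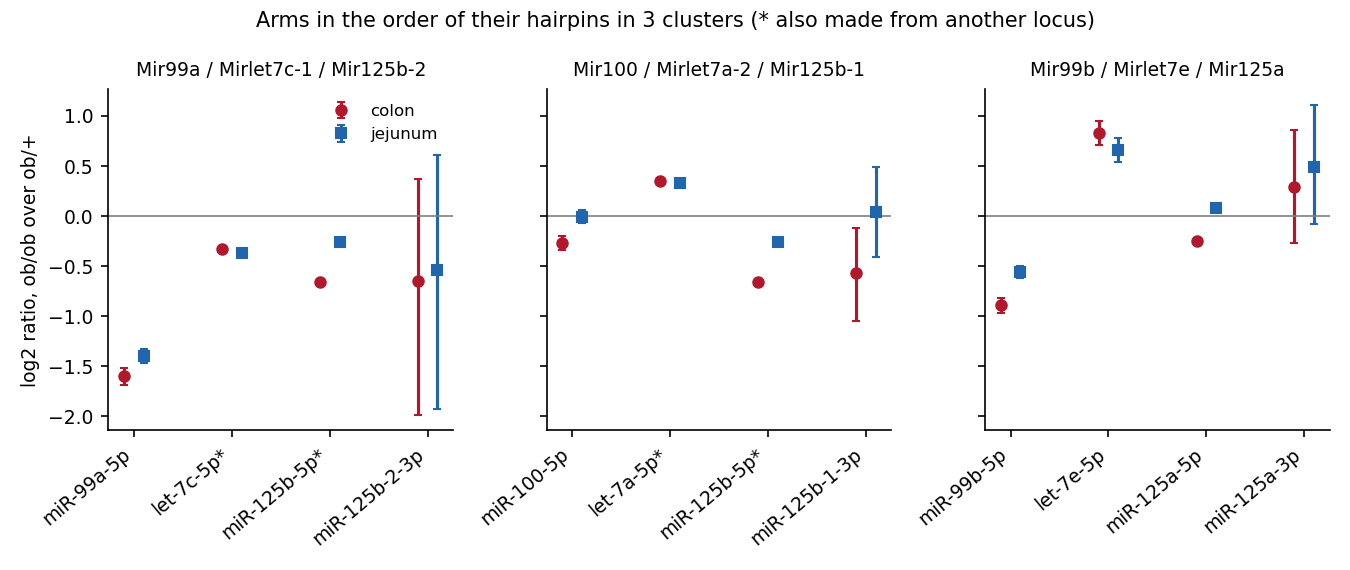
Log2 ratio of ob/ob over ob/+ in colon and jejunum for arms of each cluster, in the order of their hairpins (bars: exact conditional 95% counting intervals). An asterisk marks an arm also made from another locus. In the cluster on the right miR-99b-5p lies at -0.89 and -0.56 and let-7e-5p at 0.83 and 0.66.

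The seed CCCUGAG is not limited to miR-125. Among entries with a RefSeq mature sequence (745 of 982), miR-351-5p, encoded on the X chromosome, shared it, as did 2 entries with 1 count each over the 4 libraries. miR-351-5p was looked for by its seed, after its values were known.
miR-351-5p: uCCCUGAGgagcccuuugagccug
miR-351-5p shared its first 8 bases with miR-125a-5p and rose in ob/ob, to 2277 CPM in colon, against 669 CPM in ob/+, and to 2444 CPM in jejunum, against 527 CPM in ob/+ (log2 change 1.99 ± 0.23, edgeR adjusted p = 0.0112). It did not pass with no abundance filter (edgeR adjusted p = 0.0653). Nor did it in the fits, described for miR-99a-5p, that left out the ob/ob colon library (log2 change 2.16, adjusted p = 0.0754) or the ob/ob jejunum library (1.93, adjusted p = 0.0701) and lost nearly all calls of the table. miR-351-5p was a small part of this seed class. Entries other than miR-125 made up 2.08% of its counts in ob/ob colon, against 0.435% in ob/+ colon, and 2.35% in ob/ob jejunum, against 0.469% in ob/+ jejunum. The whole class stood at 109377 CPM in ob/ob colon, against 153972 CPM in ob/+ colon, and at 104042 CPM in ob/ob jejunum, against 112905 CPM in ob/+ jejunum. For the seed ACCCGUA the search found only the 3 miR-99/100 guide arms.

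A second comparison asked whether the arms differed between colon and jejunum. No arm passed edgeR's test with genotype as a term, and none of the 322 entries did (0%). Unadjusted p-values under 0.05 numbered 0 of 8 arms and 14 of 322 entries in edgeR. DESeq2 and limma-voom also called 0 entries, with 1 and 0 of the 8 arms at an unadjusted p under 0.05. miR-100-5p had a log2 change of -0.35 ± 0.17, colon over jejunum (edgeR adjusted p = 0.951), and both colon libraries lay below both jejunum libraries, as for 6.52% of entries. miR-125a-5p had 0.29 ± 0.15 (edgeR adjusted p = 0.951), and both colon libraries lay above both jejunum libraries, as for 6.21% of entries. No arm was at least 2-fold higher or lower in colon, in ob/ob (4.97% and 2.80% of entries) or in ob/+ (3.73% and 8.07%). miR-125b-5p was 1.36-fold higher in colon in ob/+ and 1.03-fold higher in ob/ob.

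Among entries averaging 100 CPM or more, those with the profile most like each guide arm came from other families. Likeness was the root mean square difference of log2 CPM over the 4 libraries, each entry centred on its own mean, across 148 other entries. miR-335-3p and miR-132-3p were nearest to miR-99a-5p, at 0.13 each, beside a median of 0.74. miR-151-5p (0.065) and miR-148a-3p (0.080) were nearest to miR-99b-5p, and miR-361-5p and miR-378c (0.13 each) to miR-100-5p. miR-423-3p (0.041) and miR-26b-5p (0.065) were nearest to miR-125a-5p, and let-7d-3p (0.031) and miR-374b-5p (0.044) to miR-125b-5p. The points are 4 libraries, so these values only describe them.

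**Figure D5:**
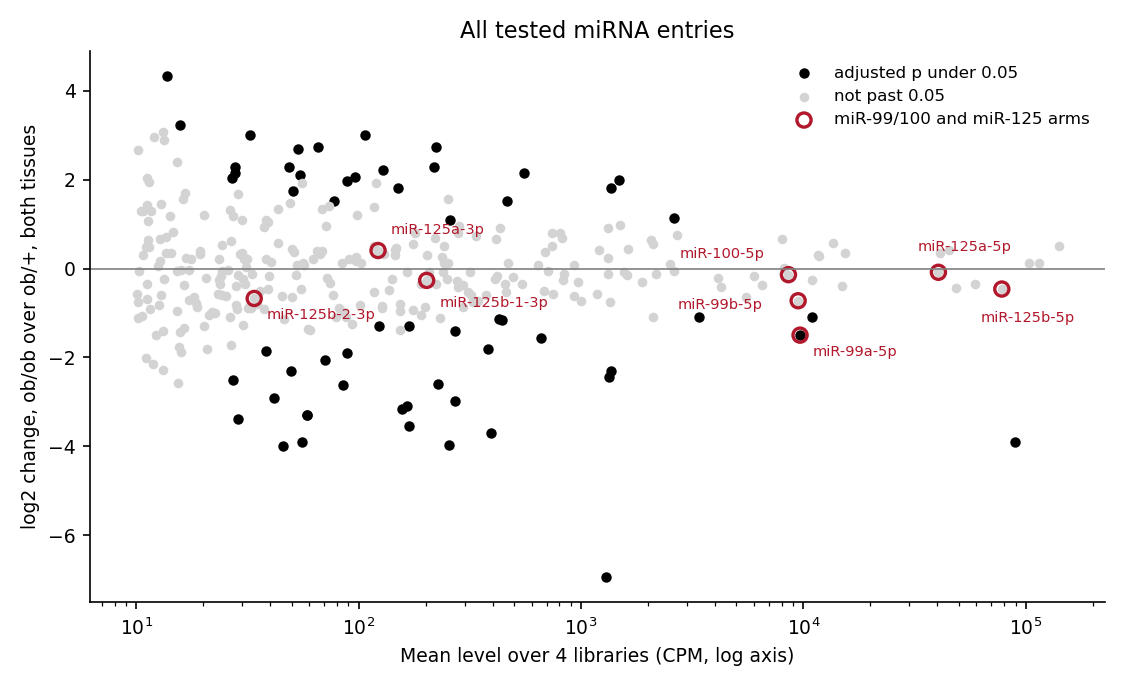
Mean level over the 4 libraries (CPM, log axis) against the log2 change of ob/ob over ob/+ over both tissues for all 322 tested entries. Black points passed an adjusted p of 0.05 in edgeR, and red rings mark the 8 miR-99/100 and miR-125 arms, of which miR-99a-5p at -1.50 passed.

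Of the marker lists of other cell types, those of fibroblast and epithelium held arms that edgeR called different between the same libraries. All 4 tested arms of 5 fibroblast entries in the table were called lower in ob/ob in edgeR. The 5 entries summed to 888 CPM in ob/ob colon, against 5001 CPM in ob/+ colon. In jejunum they summed to 963 CPM in ob/ob, against 4812 CPM in ob/+. miR-214-5p was at 0 in at least 1 library. Of 8 epithelial entries 6 were tested and 4 were called lower. The 8 entries summed to 283 CPM in ob/ob colon, against 897 CPM in ob/+ colon. In jejunum they summed to 356 CPM in ob/ob, against 2088 CPM in ob/+. miR-141-3p and miR-429-3p were at 0 in at least 1 library. The smooth muscle entries, which form the largest of these sums, had 246396 CPM in ob/ob colon, against 213597 CPM in ob/+ colon, and 348771 CPM in ob/ob jejunum, against 252184 CPM in ob/+ jejunum. Of the 14 tested arms of the smooth muscle, striated muscle, leukocyte, endothelial and neuronal lists, edgeR called 0, DESeq2 3 and limma-voom 0. In edgeR 5 of these arms had an unadjusted p under 0.05, each with a higher level in ob/ob. They were miR-145a-5p, miR-145a-3p, miR-1a-3p, miR-133a-3p and miR-142-5p. Both erythroid entries were at 0 in at least 1 library, as were miR-206-3p of the striated muscle and miR-142-3p of the leukocyte list. The part of the fibroblast and epithelial differences in the fall of miR-99a-5p was not tested.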

How the data were processed

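Per the labels' protocols, the GFP-positive fraction was isolated by flow cytometry, RNA was purified with mirVana reagents and material of a genotype was pooled for Illumina libraries. Per the file headers, 3' adapters were removed, reads under 15 nt set aside and mappable reads assigned to miRBase 20 on mm9. No source used here names the aligner or the counting program. The deposited values are estimated counts, 87.7% to 89.8% of those above 0 per library being whole (within 1e-06). The authors' normalized signal is the raw count times 1 factor per library (1.45, 0.661, 1.00 and 1.05 for ob/ob colon, ob/+ colon, ob/ob jejunum and ob/+ jejunum), and the deposited ratio divides these values. SI columns (small intestine) were taken as the jejunal libraries.

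Counts were rounded, scaled by TMM (factors 1.19, 0.920, 0.973 and 0.940 in the same order) and filtered at a mean of 10 CPM. edgeR 4.0.16 fitted genotype and tissue together (residual degrees of freedom 1, prior 3.85, common biological coefficient of variation 17.3%), with Benjamini-Hochberg adjustment over 322 entries at 0.05. Each SE is the log2 change divided by the square root of F, not a spread between replicates. Ratios within a tissue used a prior count of 2. DESeq2 1.42.0, limma 3.58.1 and the other alternatives are given at the end. The arms, lists and tests were chosen with earlier results of these data known. All arms found by the rule are named, with the 2 nearest profiles of each guide arm and the listed let-7 arms. Marker lists covered fibroblast, epithelium, smooth and striated muscle, leukocyte, endothelium, erythroid and neuron.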

Additional observations from a re-analysis of the deposited data

Results flagged for a closer look

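miR-125a-5p was picked out because its genotype ratio had opposite signs in the 2 tissues, with both counting intervals away from 0. Its log2 ratio of ob/ob over ob/+ was -0.25 in colon and 0.080 in jejunum, a difference of -0.33 (counting interval -0.37 to -0.29). With 1 library per group this difference was not tested. With the authors' factors the jejunal ratio was -0.040 and the signs were the same, and with library totals alone both ratios were above 0, at 0.12 in colon and 0.13 in jejunum.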

How the results depend on the processing

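Replicates could not be paired because the labels give no replicate numbers and each group has 1 library. The tissues served as the pairs instead, with tissue as a term of the genotype test. The number of arms called lower in ob/ob was 1, and is given here with the share of all entries called lower (10.2%). It was 2 with library totals alone (8.70%), with hairpin entries left out (16.5%), with no tissue term (13.7%) and in DESeq2 (9.63%). It was 3 with median-of-ratios factors (17.4%), the authors' factors (20.8%) or a 100 CPM filter (27.5%), 7 scaled to mappable reads (49.1%) and 0 with no abundance filter (0.206%). With a library left out it ranged from 0 to 1 (0.621% to 13.7%). miR-99a-5p kept its direction throughout, but lost its call with no filter (-1.50, edgeR adjusted p = 0.0630, 972 entries tested) and without either ob/ob library (range -1.65 to -1.22). At least 2-fold lower arms numbered 4 in jejunum (41.9% of all entries) and 7 in colon (51.9%) scaled to mappable reads. Arms numbered 4 in colon at 1.5-fold (32.9%), and 0 at 4-fold in jejunum (7.14%) and colon (5.90%). Uncalled log2 changes by genotype changed sign for miR-100-5p (0.072 with library totals; -0.38 to 0.23 with a library left out), miR-125a-5p (0.13 with library totals, 0.024 with hairpin entries left out, 0.018 in DESeq2; -0.17 to 0.15 with a library left out) and miR-125a-3p (-0.47 scaled to mappable reads). With a library left out, the fit for genotype had no tissue term, so those genotype changes include part of any tissue difference. The fit for tissue likewise had no genotype term. The remaining libraries were unbalanced for genotype, so these tissue changes include part of any genotype difference. They ranged from -1.16 to 0.62 for miR-99a-5p, -0.72 to 0.12 for miR-99b-5p and -0.092 to 0.51 for miR-125b-5p. For passenger arms they ranged from -0.21 to 0.35 for miR-125a-3p, -0.24 to 0.27 for miR-125b-1-3p and -0.088 to 0.61 for miR-125b-2-3p. The 8 shares of miR-99a-5p and miR-125a-5p in their families stayed within their intervals when passenger arms were added. The cause of these differences was not tested. Depth limits the passenger arms, at 9 to 164 counts in a library for those tested.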
